A study of Dugesia japonica with 18 samples.

Results

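In whole planarians sampled over a week after X-irradiation, 256 of 25566 gene models had a mean level above that of unirradiated animals by a set ratio at day 1 and also at day 7. The animals were Dugesia japonica of the clonal strain SSP, about 5 mm long and starved before the experiment, and the labels give an X-ray dose of 150 Roentgens. RNA of the whole body was read by 3' mRNA sequencing in 18 libraries, 3 biological replicates at each of day 0 and days 0.5, 1, 3, 5 and 7. The series' design text gives day 0 as not irradiated and leaves out day 0.5, but the labels' treatment protocol makes no exception for day 0. How many animals went into a library is not stated. Unirradiated animals were sampled at day 0 alone, so irradiation and elapsed time cannot be told apart.

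Members were chosen by their day means in CPM, the counts of a gene model scaled to a common library total over gene models. The log2 ratio of a day's mean to the day 0 mean, with 0.5 CPM added to both, had to be at least 0.5 at day 1 and at day 7, and the highest of the 6 day means had to reach 10 CPM. Of 9146 gene models that reached 10 CPM at some day, 401 passed at day 1 and 1953 at day 7. The 256 that passed at both were 63.8% of the former and 13.1% of the latter. The ratios of days 1 and 7 to day 0 chose the members and are described without a test. The libraries of days 0.5, 3 and 5 entered the choice only through the highest day mean, but a comparison of these days with day 0 shares the day 0 libraries that the rule used.

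Planarians carry dividing stem cells, the neoblasts, which replace the cells of every tissue, and X-rays remove dividing cells first. Their descendants go on maturing for some days, and differentiated cells do not divide. In RNA from whole animals a transcript can gain in share because each cell holds more of it, because cells that hold it make up more of the body, or because other transcripts are lost, and these cannot be told apart here. The files do not pair the gene model IDs with gene names, so no role can be given to a member, and no markers of neoblasts, their progeny or other cell types could be checked.

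Library totals over gene models fell with time, from 7760430 to 12605652 counts at day 0 to between 4679195 and 6114135 at day 7, so the later days were read less deeply. The part of depth in the results was not tested, except by thinning all libraries to the smallest total. TMM scaling, which trims the most extreme gene models before it compares libraries and was used for all tests, gave factors between 0.94 and 1.13, the highest in day 7 replicate 3. On library totals the median log2 ratio of the 17129 gene models tested was 0.03 at days 1 and 3, then 0.09 (day 5) and 0.1 (day 7), and with TMM it was at most 0.024. With TMM in place of library totals in the rule, 191 of the 256 still met it.

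Together the members held a growing share of the RNA counted. They took 1.88 ± 0.0987% of the counts in unirradiated animals (SD, n = 3, as for the shares that follow). Within the first day the share was 2.52 ± 0.0757% (day 0.5) and then 2.99 ± 0.14% (day 1), and it went on through 3.25 ± 0.0693% (day 3) and 3.4 ± 0.0551% (day 5) to 3.64 ± 0.2% (day 7). By library the share was 1.83, 1.99 and 1.81% at day 0, then 2.61, 2.49 and 2.47% at day 0.5, and 3.4, 3.34 and 3.45% at day 5. The libraries of days 0.5 and 5 did not overlap. A low share at day 0 and higher shares at days 1 and 7 follow from the rule and show nothing further. Without the most abundant member the share went from 1.54 ± 0.0839% at day 0 to 3.02 ± 0.223% at day 7. For comparison, the ERCC control RNAs in the count table took between 0.00383% and 0.00421% of the counts at every day, from only 190 to 487 counts per library.

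**Figure D1:**
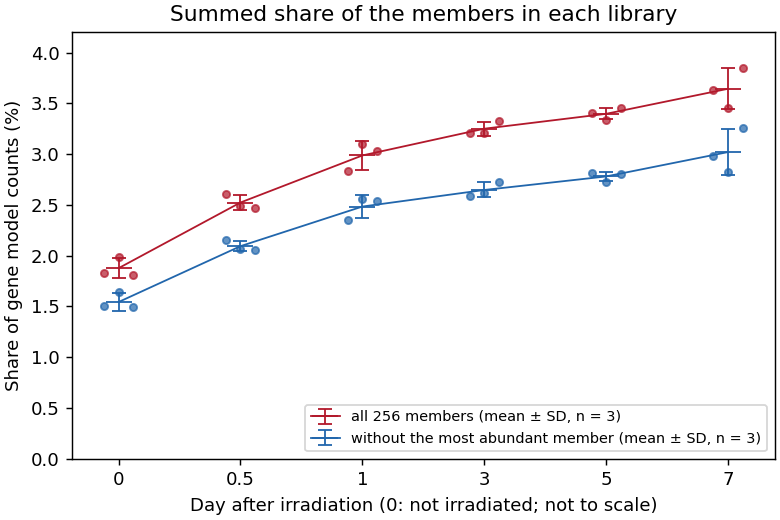
Share of all gene model counts held by the members (%) against the day, for all 256 members and without the most abundant one. Points are libraries and bars are the mean ± SD of 3, and the mean for all members goes from 1.88% at day 0 to 3.64% at day 7.

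Single libraries weighed on the choice of members. Day 0 replicate 2 was the highest of its day, with 173 of the 256 members above the day 0 mean against 107 and 99 in replicates 1 and 3. Without it 419 gene models met the rule, of which 243 were members. Without replicate 1 or replicate 3 of day 0, 258 and 259 gene models met it, of which 200 were members in each case. Day 7 replicate 3 stood apart at the other end. Its members had a median log2 ratio to day 0 of 1.06, against 0.8 and 0.85 in replicates 1 and 2. Without it 236 gene models met the rule, of which 227 were members. Without day 1 replicate 2 or replicate 3, 211 and 212 members still met the rule. Through the omission of each library in turn, 109 members met the rule every time.

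The members ranged widely in level. At day 0 their means ran from 3.54 to 3354 CPM with a median of 15.5 CPM, and at day 7 from 8.39 to 6252 CPM with a median of 29.3 CPM. At their highest day 89 members were below 20 CPM, 114 were between 20 and 100 CPM, 46 were between 100 and 1000 CPM, and 7 were above that. The average coefficient of variation between replicates had a median of 13.2% over members and of 10.8% over all gene models that reached 10 CPM.

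Most of the increases were moderate. The median log2 ratio to day 0 was 0.37, 0.6, 0.66, 0.78 and 0.9 at days 0.5, 1, 3, 5 and 7 in turn. At day 1 the values ran from 0.5 to 2.29 and at day 7 from 0.51 to 2.81. At least a doubling (log2 ratio of 1) was seen in 21 members at day 1, in 93 at day 7 and in 11 at both. The day 7 ratio exceeded the day 1 ratio in 221 members and fell short of it in 35. Over all gene models tested the median log2 ratio on library totals was also higher at day 7 (0.1) than at day 1 (0.03). Both ratios are values that the rule used.

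The day 1 threshold cut through a dense part of the distribution. At that day 123 members lay less than 0.1 inside it, and 264 gene models that met the other conditions lay less than 0.1 outside it. At day 7 the numbers were 21 inside and 25 outside. The members nearest to the day 1 threshold stood at 0.5, 0.501 and 0.502, and the nearest gene models outside at 0.5 (rounded up), 0.5 (likewise) and 0.499. At day 7 the nearest inside were 0.512, 0.517 and 0.521 and the nearest outside 0.499, 0.499 and 0.493.

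**Figure D2:**
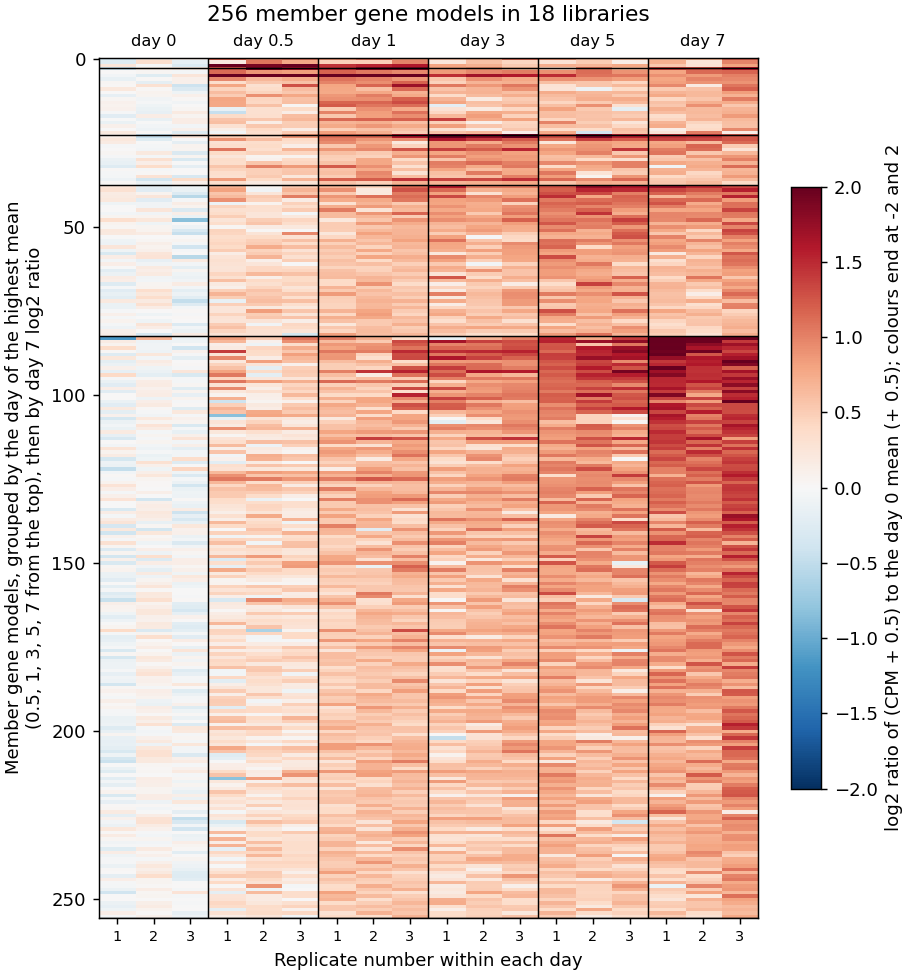
Log2 ratio of each library's CPM to the member's day 0 mean (colour, 0.5 CPM added, ending at -2 and 2) for the 256 members (rows, grouped by the day of the highest mean from 0.5 at the top to 7 at the bottom) in the 18 libraries (columns). The 173 members highest at day 7 fill the lowest block, and day 7 replicate 3 is the darkest column there.

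By the day of their highest mean, the members took different courses. The largest group, 173 members or 67.6%, was highest at day 7. Its median log2 ratio climbed from 0.33 at day 0.5 to 0.59, 0.64, 0.78 and 0.97 at days 1, 3, 5 and 7. Among all gene models that reached 10 CPM, 30.6% were highest at day 7, but the members had been chosen for a high day 7. A further 45 members were highest at day 5, with medians of 0.92 there and 0.76 at day 7, and 15 were highest at day 3. In 71 members each day's mean was above that of the sampling day before. The share over all gene models was not computed for this count, and the rule, with its low day 0 and high days 1 and 7, favours this order.

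The 20 members that were highest at day 1 had a median log2 ratio of 0.98 at that day, 0.57 at day 5 and 0.69 at day 7. Only 3 members were highest at day 0.5. Their medians were 1.11 at day 0.5 and 0.68 at day 7. These groups were formed by the day of the highest mean, so a peak at that day restates the grouping. In 107 members (41.8%) the mean was lower at day 3 than at both day 1 and day 7, as in 23.3% of all gene models that reached 10 CPM. The rule asked for a high day 1 and day 7 and not for a high day 3, which favours this order.

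**Figure D3:**
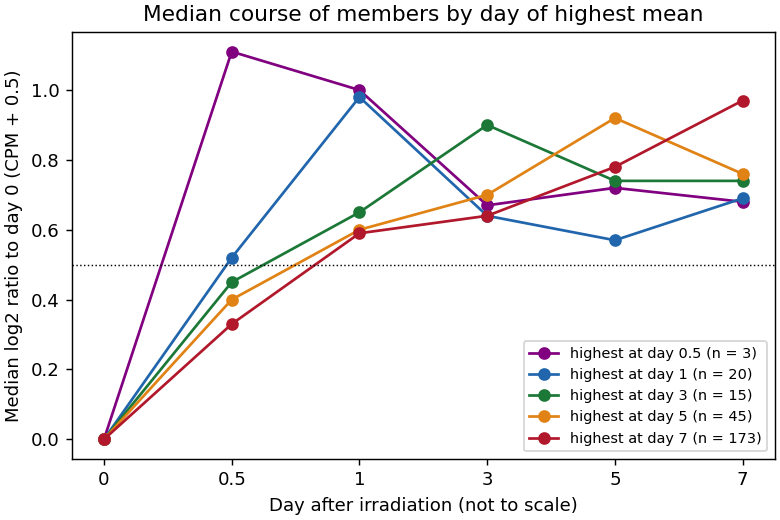
Median log2 ratio to day 0 (0.5 CPM added) against the day, for members grouped by the day of their highest mean (3, 20, 15, 45 and 173 members at days 0.5, 1, 3, 5 and 7). The dotted line marks the threshold of 0.5 that every member passed at days 1 and 7; the 173 members highest at day 7 reach a median of 0.97 there.

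The days that the rule did not use were then examined. At day 0.5, 98 of the 256 members (38.3%) were higher than at day 0 by edgeR's quasi-likelihood test (adjusted p below 0.05), against 2.59% of all gene models tested, and none was lower, against 7.44%. At day 3 the number higher was 214 (83.6%, against 13.3% of all tested), and at day 5 it was 234 (91.4%, against 14.8%). Again none was lower, although 18.5% and 20.9% of all gene models tested were. With edgeR's unadjusted p below 0.05, 172, 239 and 242 members were higher at days 0.5, 3 and 5, and 0 were lower at each of these days. The shares of all gene models at that threshold were not computed, so these counts show nothing particular to the members. The median log2 change of the members with TMM was 0.4, 0.66 and 0.72 at these days, beside medians of -0.01, 0.01 and 0.02 over all gene models tested. Because the low day 0 values that helped to choose the members enter these comparisons too, the excess over all gene models is a description.

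The count at day 0.5 was the least stable of these. It was 58 without day 0 replicate 1, 62 without day 0.5 replicate 3, 62 after thinning the libraries, and 32 with scaling by the ERCC controls. In all, 94 members passed at each of days 0.5, 3 and 5, against 1.79% of all gene models tested. A further 113 passed at 2 of these days, 38 at 1 and 11 at none. Shares over all gene models were not computed for these counts, which use the day 0 libraries that chose the members. Those 11 reached between 11.5 and 65.4 CPM at their highest day, and their coefficient of variation between replicates, with a median of 18.3%, was above that of the members as a whole.

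Library by library, 146 members (57%) had all 3 day 0.5 libraries above all 3 day 0 libraries in CPM, as did 10.2% of all gene models tested. At day 3 the number was 225 (87.9%, against 21.4%) and at day 5 it was 237 (92.6%, against 25.6%). All 9 libraries of these days lay above day 0 in 134 members (52.3%, against 5.9%). In 132 members every one of the 15 later libraries was above every day 0 library. That was true of 4.18% of all gene models tested, but days 1 and 7 had chosen the members.

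Ratios at day 0.5 are set here beside those at day 1. Both share the day 0 means that chose the members, and the day 1 ratio was part of the rule. The comparison of day 0.5 with day 1 is thus a description, and it was not made over all gene models. In the median member the log2 ratio at day 0.5 was 59.5% of that at day 1 (interquartile range 41.1% to 71.3%), and in 156 members it was at least 50%. The ratio at day 0.5 was already at or above the day 1 value in 7 members, and 2 members were below their day 0 level at day 0.5. The log2 ratio was at least 0.5 in 58 members at day 0.5, 202 at day 3 and 235 at day 5. Over all gene models that reached 10 CPM the shares were 1.31%, 9.32% and 17%, and these ratios use the day 0 means that chose the members. It was at least 0.5 at all 5 days in 53 members, or 0.579% of the gene models that reached 10 CPM, all of which are members by the rule.

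The step from day 0.5 to day 5 contrasts libraries that took no part in the ratios of the rule. From day 0.5 to day 5, 105 members (41%) rose by edgeR's test, against 7.93% of all gene models tested, and 5 (1.95%) fell, against 11.8%. The median log2 change was 0.32 (interquartile range 0.15 to 0.52) over the members and 0 over all gene models tested. The change was positive in 227 members, or 88.7%, and in 50% of all tested. Among the 105 the log2 change ran from 0.24 to 1.27 with a median of 0.55, and 6 had at least doubled. Of these 105, 33 had been called higher than day 0 at day 0.5 already. That call was made for 98 of the 256 members and for 2.59% of all gene models tested.

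The remaining 146 members were not called in either direction, with an interquartile range of 0.09 to 0.31 for the log2 change. Of these, 60 had been called higher than day 0 at day 0.5, in a comparison that shares the day 0 libraries with the rule. The calls of a rise numbered 20 of 89 members (22.5%) with a highest mean below 20 CPM, 52 of 114 (45.6%) between 20 and 100 CPM, and 33 of 53 (62.3%) above 100 CPM, while the median log2 change was 0.31, 0.32 and 0.34. Among all gene models tested at the same levels (from 10 CPM up) the shares were 6.16%, 13.2% and 26.3%, so calls were more frequent at higher levels there too.

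From day 3 to day 5 no member rose by edgeR's test (0.0992% of all gene models tested did) and 1 fell (1.1% of all tested). At an edgeR unadjusted p below 0.05, 26 members rose and 9 fell. The shares of all gene models at that unadjusted threshold were not computed, so these counts show nothing particular to the members. DESeq2 called 1 rise and 2 falls. The median log2 change in this step was 0.07 (interquartile range -0.04 to 0.18), beside 0 over all gene models tested.

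Gene models that passed only 1 of the thresholds are set beside the members here. In the step from day 0.5 to day 5, of 145 that passed at day 1 only, 7 (4.83%) rose and 56 (38.6%) fell, with a median log2 change of -0.22. Of 1697 that passed at day 7 only, 754 (44.4%) rose and 4 (0.236%) fell, with a median of 0.33 beside 0.32 over the members. Against day 0, 98 of 256 members and 115 of 1697 (6.78%) were called higher at day 0.5, with median log2 changes of 0.4 and 0.14. In the day 1 group it was 39 of 145 (26.9%), with a median of 0.32. Of all gene models tested, 2.59% were called higher at day 0.5. These comparisons share the day 0 libraries that sorted the groups, so the differences at day 0.5 are a description. The groups differ in their day 1 or day 7 values by definition, and no test of the difference between groups of gene models was made.

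**Figure D4:**
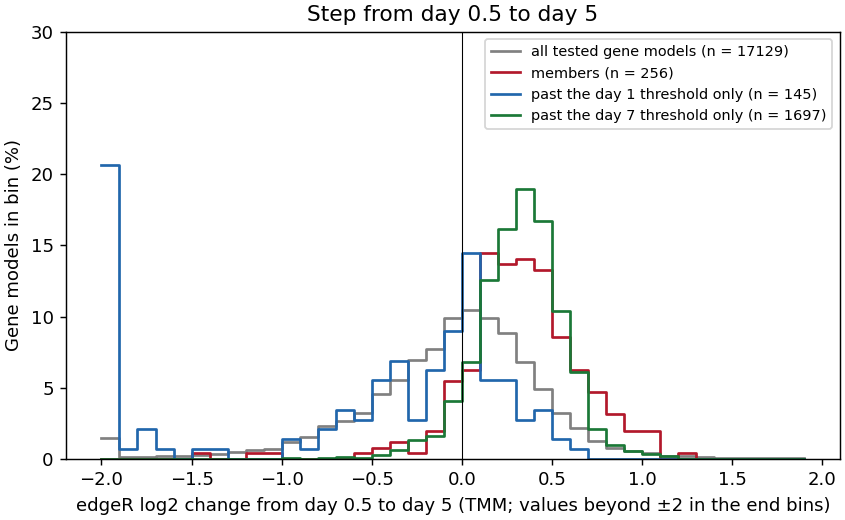
Distribution of edgeR log2 changes from day 0.5 to day 5 (share of gene models in bins of the log2 change) for the 17129 gene models tested, the 256 members, and the gene models past the day 1 threshold only (145) or the day 7 threshold only (1697). The members and the day 7 group lie mostly above 0, with medians of 0.32 and 0.33, while the day 1 group has a median of -0.22 and a tail of large falls.

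Among single members, DjGI013388-001 had the highest value for the smaller of its ratios at days 1 and 7. Its level was 53.4, 79.3 and 82.7 CPM in the day 0 libraries, 170, 278 and 235 CPM at day 0.5, 201, 254 and 257 CPM at day 1, and 127, 137 and 114 CPM at day 3. It was then 98.4, 151 and 114 CPM at day 5 and 182, 177 and 220 CPM at day 7. All libraries after day 0 were above all those of day 0, and the level came down after day 1 before it stood higher again at day 7. Between days 0.5 and 5 the log2 change was -1.01 ± 0.16 (SE), with an edgeR adjusted p of 3.36e-05.

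The most abundant member was DjGI003158-001. It stood at 3274, 3519 and 3269 CPM at day 0 and at 4620, 4185 and 4122 CPM at day 0.5. The values were 4717, 5360.0 and 4905 CPM at day 1, 6161, 5911 and 5958 CPM at day 3, 5854, 6080.2 and 6559 CPM at day 5, and 6565, 6297 and 5894 CPM at day 7. The libraries of days 3, 5 and 7 overlapped with each other, and all were above those of days 0, 0.5 and 1. Its log2 change between days 0.5 and 5 was 0.42 ± 0.09 (SE), with an edgeR adjusted p of 0.000808. DjGI003158-002, which shares its first number, is also a member. Reads of near-identical copies could have been divided between such IDs, so each level alone is uncertain.

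The members above 1000 CPM were 7 in number, and each was called higher than day 0 at day 0.5 by edgeR. Of all gene models tested, at any level, 2.59% were, and the comparison shares the day 0 libraries that chose the members. From day 0.5 to day 5, 6 of the 7 rose, with a median log2 change of 0.34 over the 7. Among all gene models tested with a highest mean of 100 CPM or more, 26.3% rose in that step, and the share above 1000 CPM was not computed. From day 3 to day 5 none of the 7 was called.

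Among members called in the step from day 0.5 to day 5 with at least 20 CPM in the higher group and no overlap of libraries, DjGI000003-031 and DjGI000003-023 rose most. DjGI000003-031 went from 100, 74.3 and 80.2 CPM at day 0 to 138, 87.7 and 124 CPM at day 0.5, 137, 115 and 192 CPM at day 1 and 257, 175 and 176 CPM at day 3. It reached 207, 289 and 262 CPM at day 5 and 281, 241 and 215 CPM at day 7. Its day 0.5 libraries overlapped with day 0, and its day 5 libraries did not. The log2 change from day 0.5 to day 5 was 1.02 ± 0.19 (SE; edgeR adjusted p = 0.000155).

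DjGI000003-023 followed a like course at a lower level. Its mean was 13.8 ± 1.57 CPM at day 0, and through days 0.5, 1, 3, 5 and 7 it was 21.1 ± 5.91, 25.7 ± 8.29, 38.8 ± 5.36, 45.4 ± 3.92 and 51.1 ± 11.8 CPM (SD, n = 3). The day 5 and day 0.5 libraries did not overlap. Its log2 change from day 0.5 to day 5 was 1.01 ± 0.2 (SE; edgeR adjusted p = 0.000577). These IDs are not independent: 31 IDs carry the first number 000003, and 6 of them are members. All 6 rose from day 0.5 to day 5 by edgeR, with a median log2 change of 1, and 7.93% of all gene models tested rose. At day 0.5, 1 of the 6 was called higher than day 0, against 2.59% of all tested, in a comparison that shares the day 0 libraries with the rule. The day 0 means of the 6 ran from 3.54 to 85 CPM. IDs with this first number that did not pass the rule are not described here.

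Of the members that fell in the step, DjGI013992-001 and DjGI016614-001 fell most. DjGI013992-001 stood at 16.4, 13.7 and 11.3 CPM at day 0 and at 62.7, 53.1 and 62.0 CPM at day 0.5. It was at 38.6, 40.8 and 42.9 CPM at day 1, 24.2, 22.8 and 20.0 CPM at day 3, 23.2, 22.4 and 23.6 CPM at day 5 and 20.2, 16.9 and 24.4 CPM at day 7. The early libraries of days 0.5 and 1 were the highest, and each library of day 7 was still above those of day 0. Between days 0.5 and 5 its log2 change was -1.46 ± 0.12 (SE; edgeR adjusted p = 3.3e-10), and from day 3 to day 5 the change was -0.01 ± 0.13 (SE; edgeR adjusted p = 0.99).

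DjGI016614-001 was the member with the highest ratios at days 0.5 and 1, with log2 values of 2.28 and 2.29. It went from 5.13, 4.44 and 6.44 CPM at day 0 to 27.5, 27.1 and 29.0 CPM at day 0.5 and 26.1, 32.5 and 25.3 CPM at day 1. Its libraries were at 15.8, 18.2 and 17.3 CPM at day 3, 15.9, 11.9 and 11.7 CPM at day 5 and 10.5, 10.0 and 11.3 CPM at day 7. The day 7 libraries lay below those of every other day after irradiation and above those of day 0. The log2 change from day 0.5 to day 5 was -1.18 ± 0.15 (SE; edgeR adjusted p = 6.69e-07).

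**Figure D5:**
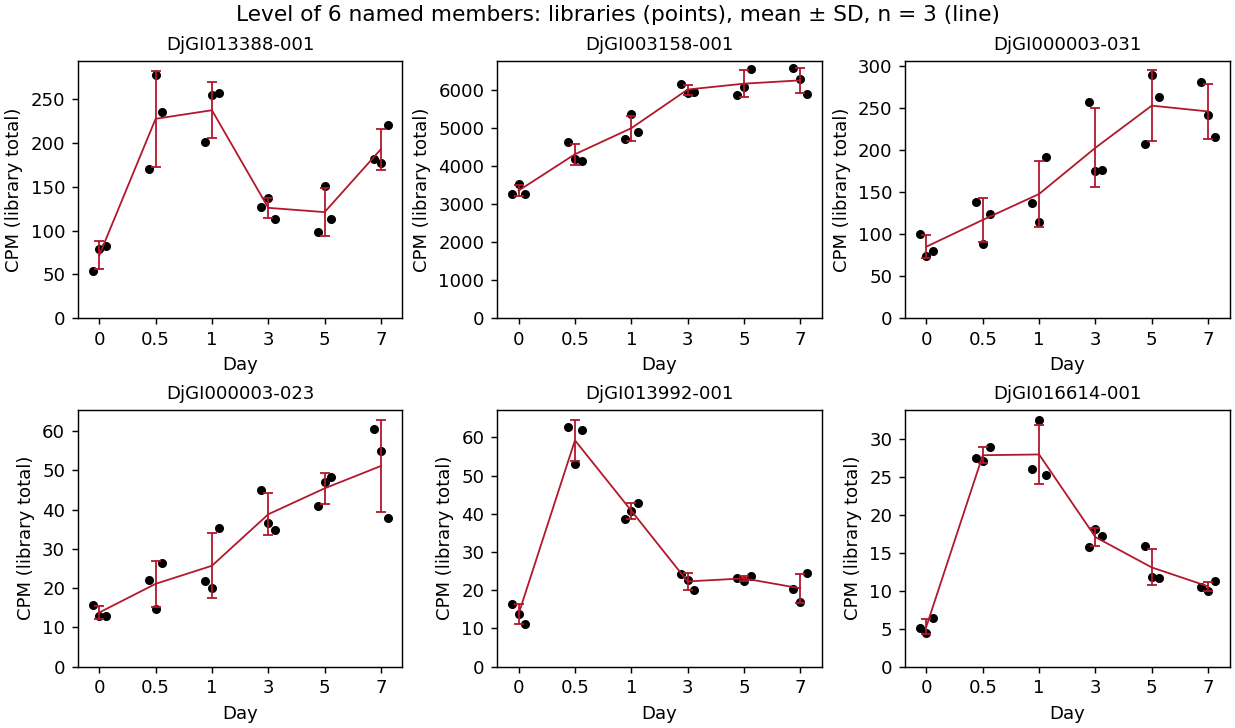
Level in CPM (library totals) against the day for the 6 members described one by one, with libraries as points and the mean ± SD of 3 as the line. DjGI003158-001 and both IDs of the first number 000003 climb to days 5 and 7, DjGI013992-001 and DjGI016614-001 are highest at days 0.5 and 1, and DjGI013388-001 is high at days 0.5, 1 and 7.

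The other 2 members that fell from day 0.5 to day 5, and the 1 that fell from day 3 to day 5, are named here after their values were seen. DjGI005028-001 was at 38.8, 57.8 and 53.2 CPM at day 0, 116, 102 and 107 CPM at day 0.5, 96.0, 77.6 and 75.4 CPM at day 5 and 78.8, 81.9 and 118 CPM at day 7. Its day 0.5 libraries were all above those of day 5, a log2 change of -0.48 ± 0.13 (SE), with an edgeR adjusted p of 0.00842. The log2 change of DjGI018891-001 was -0.53 ± 0.19 (SE; edgeR adjusted p = 0.0481), from 20.9, 39.1 and 31.9 CPM at day 0.5 to 22.7, 26.5 and 19.9 CPM at day 5, so its libraries overlapped. These falls numbered 3 in place of 5 with library totals, with ERCC scaling and without day 5 replicate 3.

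DjGI003363-002 was called lower at day 5 than at day 3, with 131, 147 and 154 CPM against 252, 164 and 171 CPM. Day 3 replicate 1 was the high library. The log2 change was -0.5 ± 0.13 (SE; edgeR adjusted p = 0.044), and no member was called lower in this step without that library, with library totals, with ERCC scaling or in 9 of the other single omissions. Its ID also shares the first number with 1 other.

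IDs that share a first number were about as common among members as elsewhere. They made up 80 of the 256 members (31.2%) and 29.4% of all gene models that reached 10 CPM. The members carried 228 first numbers, and 48 members shared theirs with another member. When counts were summed over each first number, 206 of these 228 still met the rule. Among the 52 that cover more than 1 ID, 30 did.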

How the data were processed

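The authors deposited a table of estimated counts per gene model for 18 libraries, without normalization. Per the submitters' processing notes, fastp 0.21.0, BWA 0.7.17-r1188 and Salmon were used, without a role or order. The reference and the source of the gene models are not stated. A second deposited table, per its file headers, gives each library's total count, number of rows above 0 and day, and its days were the same as the labels' days. The 92 ERCC rows (0.004% of counts) were left out of totals and tests, and 38 values that were not whole were rounded for the tests.

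Members were chosen on CPM from library totals, and all levels printed are on that scale. Fold changes are from edgeR 4.0.16 in R 4.3.3, with the quasi-likelihood F-test over all 18 libraries, 1 mean per day, scaling by TMM (trimmed mean of M values) and the default filter by group (minimum count 10, minimum total 15), which left 17129 gene models and all 256 members. Tests were two-sided, adjusted by Benjamini-Hochberg over all gene models tested in a comparison, with a threshold of 0.05. The SE was taken as the log2 change divided by the square root of F, an approximation. Nothing in the labels beyond the word biological says how the replicates were kept apart. The members, sets and tests were chosen with earlier results of these data known.

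On data simulated for the step from day 0.5 to day 5 over 16569 gene models, the fit recovered 64% of 1.5-fold and 100% of 3-fold changes, and 2.96% of calls were false. The simulation drew all days from the day 0.5 means with a common spread, and changed only some gene models at 10 CPM or more. Differences in spread between gene models were not simulated, so these rates need not hold for the real libraries. Named members were the highest by the smaller ratio of days 1 and 7, the most abundant, and those that rose and fell most from day 0.5 to day 5 among called members with at least 20 CPM (TMM) in the higher group and no overlap. Alternatives were other scalings, filters and thresholds, DESeq2 1.42.0, a replicate block, only the 6 libraries compared, thinning to 4679195 counts, summing over first numbers and leaving out each library.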

Additional observations from a re-analysis of the deposited data

Results flagged for a closer look

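Levels at days 0.5 and 5 were contrasted with the same day 0 libraries, and the step between those days tests whether the effects differ. It differed for 110 members, of which 105 (41%) were higher and 5 (1.95%) lower at day 5, against 7.93% and 11.8% of all gene models tested. From day 3 to day 5 it differed for 1 member (0.391%), which fell, and 1.1% of all gene models tested fell in that step. Among the members described one by one, the log2 change from day 0.5 to day 5 was -1.01 for DjGI013388-001, 0.42 for DjGI003158-001, 1.02 for DjGI000003-031, 1.01 for DjGI000003-023, -1.46 for DjGI013992-001 and -1.18 for DjGI016614-001 (edgeR, adjusted p below 0.05 for each). DjGI000003-031, DjGI000003-023, DjGI013992-001 and DjGI016614-001 were picked by their size and call in this same step. Their values here restate that choice.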

How the results depend on the processing

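The number of gene models meeting the rule was 167 with a floor of 20 CPM, 540 with a floor of 1 CPM and 52 with a threshold of 0.75. Leaving out 1 library gave between 236 (without day 7 replicate 3) and 419 (without day 0 replicate 2), and other scalings, a pseudocount of 1 CPM and sums over first numbers gave between 191 and 333. Members higher at day 0.5 numbered 98, but 32 with ERCC scaling, 62 with thinned libraries and between 58 and 108 without 1 library. The cause was not tested, although thinning removes reads and leaving out a library removes a sample. The counts higher at days 3 and 5 and the 105 that rose from day 0.5 to day 5 stayed within 1.5 times under every alternative run. The last ranged from 81 to 135.

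The small counts moved more. Falls from day 0.5 to day 5 were 5, and 3 with ERCC scaling and with library totals, and between 3 and 6 without 1 library. Rises from day 3 to day 5 were 0, but 1 with DESeq2, the filter of 30 reads in 3 libraries, thinned libraries or upper-quartile scaling, 3 with library totals or only the 6 libraries compared, 4 with no filter, and 0 to 3 without 1 library. Falls in that step were 1, but 2 with DESeq2 or no filter, 3 with only the 6 libraries compared, 0 with ERCC scaling or library totals, and 0 to 2 without 1 library. The named members kept their direction and call in the step from day 0.5 to day 5 under all alternatives run for them.

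With the replicate number as a block (replicate block), 106 members rose and 5 fell from day 0.5 to day 5, and 98, 217 and 233 were higher at days 0.5, 3 and 5. Deviations of same-numbered libraries from their day means correlated between -0.05 and 0.14, in no comparison above 0.1 for all 3 numbers. For these low values the numbers were not taken to pair the samples. Even so, 10 of 18 libraries correlated best with their own number, and how many would do so without pairing was not computed. Of the 89 members below 20 CPM, 22.5% were called as rises from day 0.5 to day 5, against 62.3% of those above 100 CPM. Among all gene models tested at the same levels (from 10 CPM up) the shares were 6.16% and 26.3%. The ERCC scaling rests on 190 to 487 counts per library.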
